A study of Sus scrofa with 40 samples.

Results

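GPC4 and BGN encode the core proteins of 2 proteoglycans, and their messenger RNA levels are described here in cultured coronary endothelial cells of the pig. GPC4 (gene ID 100156029) was read from the probe set that the authors' deposited tables title as similar to glypican 4, and BGN (biglycan, gene ID 397396) from the probe set named for it. Each gene was named by 1 probe set, so no choice between probe sets had to be made. Both genes lie on chromosome X of the pig in the RefSeq gene table. They are 2 of 23999 gene probe sets on the array, and both were among the 17999 left after dim probe sets were removed. GPC4 was chosen with its higher level in regenerated cells known, so its differences between regenerated and native cells of the FO and control pairs, their mean over diets, their differences between diets and their relations with other measures are given as descriptions without a test. The same holds for the differences of GPC4 between diets in regenerated cells.

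The cells came from female farm pigs aged 4 months and were used as primary cultures after 10 days without passage. Regenerated cells were scraped from a stretch of the left anterior descending artery that had been stripped of its lining earlier, and native cells from the left circumflex branch (LCX). The animals were 6 fed high cholesterol (CHL), 6 given polyunsaturated fatty acids, described in the title of the study as fish oil (FO), and 8 controls. Each animal gave 1 regenerated and 1 native culture, which makes 6 groups, 20 pairs and 40 Affymetrix porcine arrays. Regenerated and native cells always came from different arteries, so regrowth and artery cannot be told apart. In FO pair 6 the 2 labels belong to different animals, and 5 control pairs carry 2 different MA numbers instead of an artery.

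Proteoglycans are proteins that carry long sulfated sugar chains. Glypican 4 is held in the outer face of the cell membrane by a lipid anchor, and its heparan sulfate chains bind growth factors and morphogens such as FGFs and Wnts. Biglycan is secreted into the matrix, where it carries chondroitin or dermatan sulfate chains, binds collagen and TGF-beta, and in the artery wall can hold lipoproteins. No sequence is shown, because the files used here hold none for either gene.

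Endothelial identity was checked first. PECAM1, an adhesion receptor of endothelial junctions, had signals between 4452 and 10287, and CDH5, the endothelial cadherin, between 5959 and 11270.5 over all arrays. VWF, the clotting factor stored by endothelial cells, was dim, with signals between 27.9 and 99.7. Of 15 endothelial markers with a named probe set, 13 were left after dim probe sets were removed. The mean log2 level of these 13 ran from 9.46 to 9.72 over the 6 groups, a range that leaves out the dimmest markers. Array signals had a 2% trimmed mean of 500.1 on every array, and the number of arrays limits the precision. The regenerated arrays of control animal 6 and FO animal 3 stood apart, with actin 3'/5' signal ratios of 264 and 422, against 1.33 to 6.89 on the other 38 arrays. Paired arrays deviated from their group means with a correlation below 0 in control animals 4 and 5 (-0.12 and -0.03) and in FO animal 6 (-0.23), and with one above 0.1 in the other 17 pairs.

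GPC4 was higher in regenerated than in native cells in every one of the 20 pairs. In CHL animals its lowest, median and highest signals were 133, 537 and 816 in regenerated cells, against 95.0, 216 and 536 in native cells. In FO animals they were 404, 1095 and 2184 in regenerated cells, against 77.4, 311 and 436 in native cells. In controls they were 298, 1099 and 2945 in regenerated cells, against 90.0, 269 and 669 in native cells. The ranges of the regenerated and native groups overlapped in all 3 diets, and it was within pairs that the direction never changed. In FO animals the overlap was slight, since the lowest regenerated signal (404) exceeded all native signals except the highest (436).

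The size of the GPC4 difference varied widely between animals. The difference in log2(signal + 16) ran from 0.43 to 1.89 in the 6 CHL pairs, with a mean of 0.997 ± 0.61 (SD). It ran from 0.15 to 4.10 in the 6 FO pairs, with a mean of 2.09 ± 1.65, and from 0.34 to 2.99 in the 8 control pairs, with a mean of 1.74 ± 0.95. Over all diets 13 pairs differed by more than 2-fold. The mean differences correspond to 1.995-fold in CHL pairs, 4.25-fold in FO pairs and 3.33-fold in control pairs.

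The FO mean was carried by 2 animals. FO pairs 1 and 6 had differences of 4.10 and 3.99, more than 10-fold each, while FO pair 5 had 0.15. FO pair 6 is the one labelled with different animals. Without it and the other 2 pairs that correlated below 0, the means were 0.997 in CHL, 1.71 in FO and 1.40 in control pairs. Without the 2 animals with a degraded RNA array they were 0.997 in CHL, 2.06 in FO and 1.67 in control pairs, so GPC4 was about as high without those arrays.

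**Figure D1:**
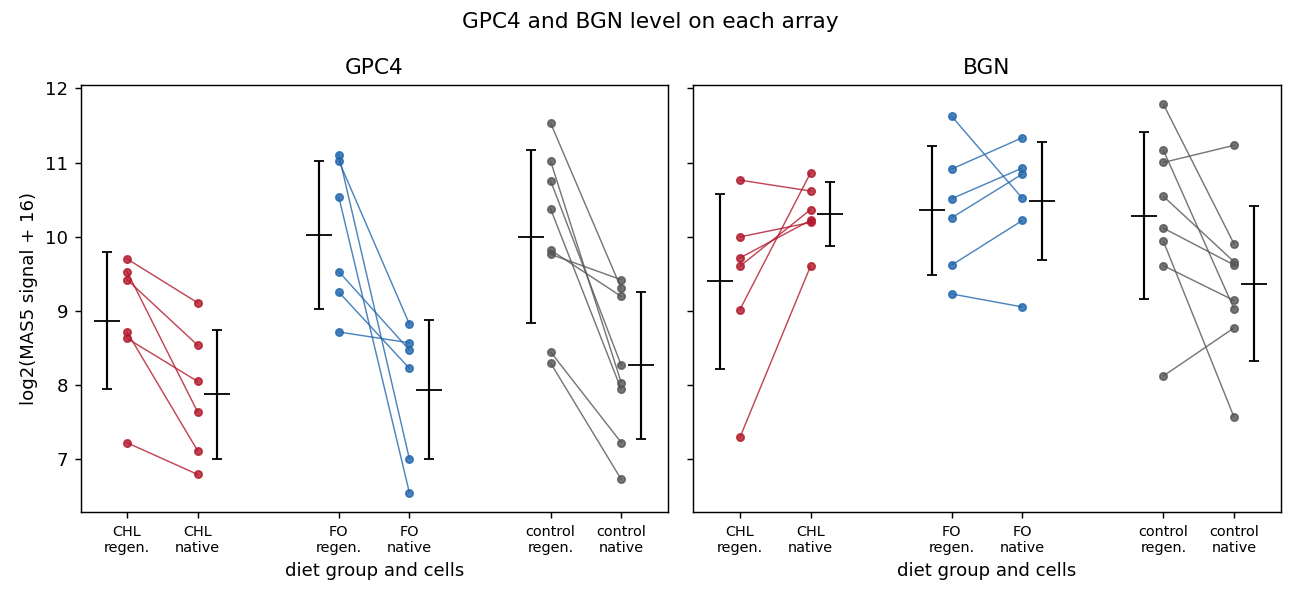
Level of GPC4 (left panel) and BGN (right panel) as log2(MAS5 signal + 16) on each of 40 arrays, grouped by diet and cells, with a line joining the 2 cultures of a pair and black bars for the group mean ± SD (n = 6 for CHL and FO, 8 for control). Every GPC4 line falls towards the native cells, whereas BGN lines run both ways, with 9 of 20 higher in regenerated cells.

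A higher level in every pair was rare on the array. In CHL pairs 3.03% of the 17999 probe sets were higher in all 6 pairs, in FO pairs 1.98% were higher in all 6, and in control pairs 1.51% were higher in all 8. Over all 20 pairs 6 probe sets, or 0.0333%, were higher in every pair, GPC4 among them. These shares are given as background only, since the FO and control values among them chose GPC4. By size, the mean GPC4 difference over the 3 diets, 1.61 on the log2 scale or 3.05-fold, was the 4th highest of 17999, and in FO pairs GPC4 was the 3rd highest.

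The label style of the control pairs went with the size of the GPC4 difference. The 5 control pairs with MA labels had a mean log2 difference of 2.14 (range 1.22 to 2.99), and the 3 artery-named control pairs had 1.07 (range 0.34 to 2.23). Over artery-named animals alone the mean log2 differences were therefore 0.997 in CHL, 2.09 in FO and 1.07 in control pairs. The artery-named control mean rested on control animal 6 (2.23), whose regenerated array had degraded RNA. Without that animal the other 2 averaged 0.48. The gap between CHL and control pairs was -0.74 over all animals, -0.07 over artery-named animals and 0.51 over artery-named animals without a degraded RNA array, so its direction was not stable. The last of these settings was chosen after the values were seen.

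BGN did not keep one direction. In CHL animals its lowest, median and highest signals were 141, 792 and 1722 in regenerated cells, against 762, 1240.2 and 1842 in native cells. In FO animals they were 584, 1326 and 3139 in regenerated cells, against 515, 1638 and 2567 in native cells. In controls they were 263, 1285 and 3512 in regenerated cells, against 174, 659 and 2389.6 in native cells. All 3 pairs of ranges overlapped. The spread of the CHL-native group was the narrowest of the 6, with an SD of 0.43 on the log2 scale, against 0.80 to 1.18 in the other groups.

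Within pairs BGN was lower in regenerated cells in 5 of 6 CHL animals, lower in 4 of 6 FO animals and higher in 6 of 8 controls. At least as many pairs went the same way for 10.5% of all probe sets in CHL pairs, for 37.8% in FO pairs and for 21.6% in control pairs. The mean log2 differences were -0.91 ± 0.96 (SD, range -2.31 to 0.15) in CHL pairs, -0.12 ± 0.67 (range -0.60 to 1.10) in FO pairs and 0.92 ± 1.11 (range -0.65 to 2.37) in control pairs. The highest FO value, 1.10, belongs to FO animal 3, whose regenerated array had degraded RNA, and the FO mean was -0.37 without it. Of all pairs, 6 differed by more than 2-fold, 2 of them (CHL animals 1 and 3) lower in regenerated cells and 4 higher. The 4 higher pairs were those of control animals 4, 5 and 6 and FO animal 3, all of which had a degraded RNA array or paired arrays that correlated below 0.

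**Figure D2:**
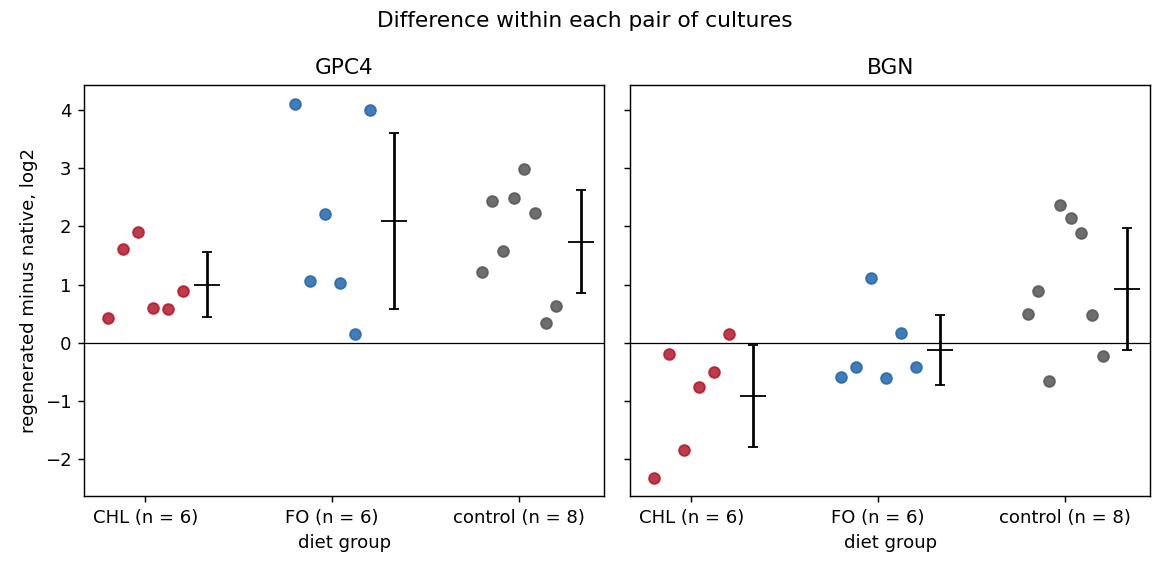
Difference between regenerated and native cells in each pair, in log2(signal + 16), for GPC4 (left) and BGN (right) by diet group, with black bars for mean ± SD. All GPC4 points lie above 0, whereas BGN points lie mostly below 0 in CHL pairs and mostly above 0 in control pairs.

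None of the BGN differences passed the test over all probe sets. In limma's paired fit the regenerated minus native difference was -0.91 ± 0.36 (SE, adjusted p = 0.775) in CHL pairs, -0.12 ± 0.36 (adjusted p = 0.931) in FO pairs and 0.92 ± 0.31 (adjusted p = 0.0832) in control pairs. At the threshold of 0.05, 0.00556% of all probe sets were called in CHL pairs, 0.0389% in FO pairs and 0.289% in control pairs. The control difference passed without control animal 3 (1.14, adjusted p = 0.0392) or without control animal 8 (1.08, adjusted p = 0.0368), the 2 controls in which BGN was lower in regenerated cells. Many other probe sets passed there too: 1448 were called without control animal 3 and 2405 without control animal 8, against 52 over all animals. Over the 20 settings that each leave out 1 animal its adjusted p ran from 0.0368 to 0.272. In the 3 artery-named controls the difference was 0.71 (adjusted p = 0.946), and without the 3 pairs that correlated below 0 it was 0.48 (adjusted p = 0.629).

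The BGN difference between diets was larger than either difference within a diet, and also missed the threshold. Regenerated minus native differed between CHL and control pairs by -1.83 ± 0.48 (SE, 95% confidence interval -2.82 to -0.84), with an adjusted p of 0.316. This was the 29th lowest of the 17999 differences between CHL and control pairs, and no probe set was called in that comparison although 2625 had an unadjusted p under 0.05. FO pairs differed from control pairs by -1.04 ± 0.48 (interval -2.04 to -0.05, adjusted p = 0.909). CHL pairs differed from FO pairs by -0.79 ± 0.51 (interval -1.85 to 0.27, adjusted p = 0.999). For GPC4 the matching values, as descriptions, were -0.74 between CHL and control pairs, 0.35 between FO and control pairs and -1.09 between CHL and FO pairs. As each animal was left out, the GPC4 value between FO and control pairs ran from -0.05 to 0.74 and that between CHL and FO pairs from -1.48 to -0.69. Over artery-named animals the GPC4 value between FO and control pairs was 1.02. The BGN differences kept their direction, but their size depended on the pairs used. Between CHL and control pairs BGN differed by -1.39 (adjusted p = 0.743) once the 3 pairs that correlated below 0 were left out. The value was -1.69 (adjusted p = 0.431) without the degraded arrays and -1.62 (adjusted p = 0.861) over artery-named animals. Between FO and control pairs BGN differed in these 3 settings by -0.54, -1.15 and -0.83.

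Between CHL and control animals BGN differed in opposite directions in native and in regenerated cells, without passing the test. In native cells BGN was higher by 0.94 ± 0.41 (SE, interval 0.08 to 1.80, adjusted p = 0.288) in CHL than in control animals and by 1.12 ± 0.41 (interval 0.26 to 1.98, adjusted p = 0.400) in FO than in control animals. In regenerated cells it differed by -0.89 ± 0.53 in CHL against control animals (interval -1.99 to 0.22, adjusted p = 0.611) and by 0.07 in FO against control animals (interval -1.03 to 1.18, adjusted p = 0.998). Against the 3 artery-named controls alone, the native differences were smaller, at 0.22 for CHL and 0.39 for FO animals. CHL and FO native cells differed by -0.17 (interval -1.09 to 0.75), and CHL and FO regenerated cells by -0.96 (interval -2.14 to 0.22). The comparisons of CHL and FO animals with controls share the same 8 control animals.

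No difference of GPC4 between diets passed the test in native cells, and those in regenerated cells are given as descriptions. In native cells its log2 difference was -0.39 for CHL against control animals (interval -1.36 to 0.58, adjusted p = 0.729) and -0.33 for FO against control animals (interval -1.29 to 0.64, adjusted p = 0.908). In regenerated cells it was -1.13 for CHL against control animals, -1.16 for CHL against FO animals and 0.03 for FO against control animals. These values carry no test, because the regenerated arrays of FO and control animals were among those that chose GPC4. The native arrays of the same animals entered that choice too, which limits the native tests. Against the artery-named controls the native values were -1.43 for CHL and -1.37 for FO animals, and the regenerated values -1.50 for CHL and -0.35 for FO animals. Of the GPC4 differences between regenerated and native cells only that of CHL animals was tested, since FO and control pairs chose GPC4. Its higher level in regenerated cells was known beforehand, which limits this test too. The CHL difference was 0.997 ± 0.42 (SE, interval 0.11 to 1.88, adjusted p = 0.779), with regenerated cells higher in all 6 pairs.

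**Figure D3:**
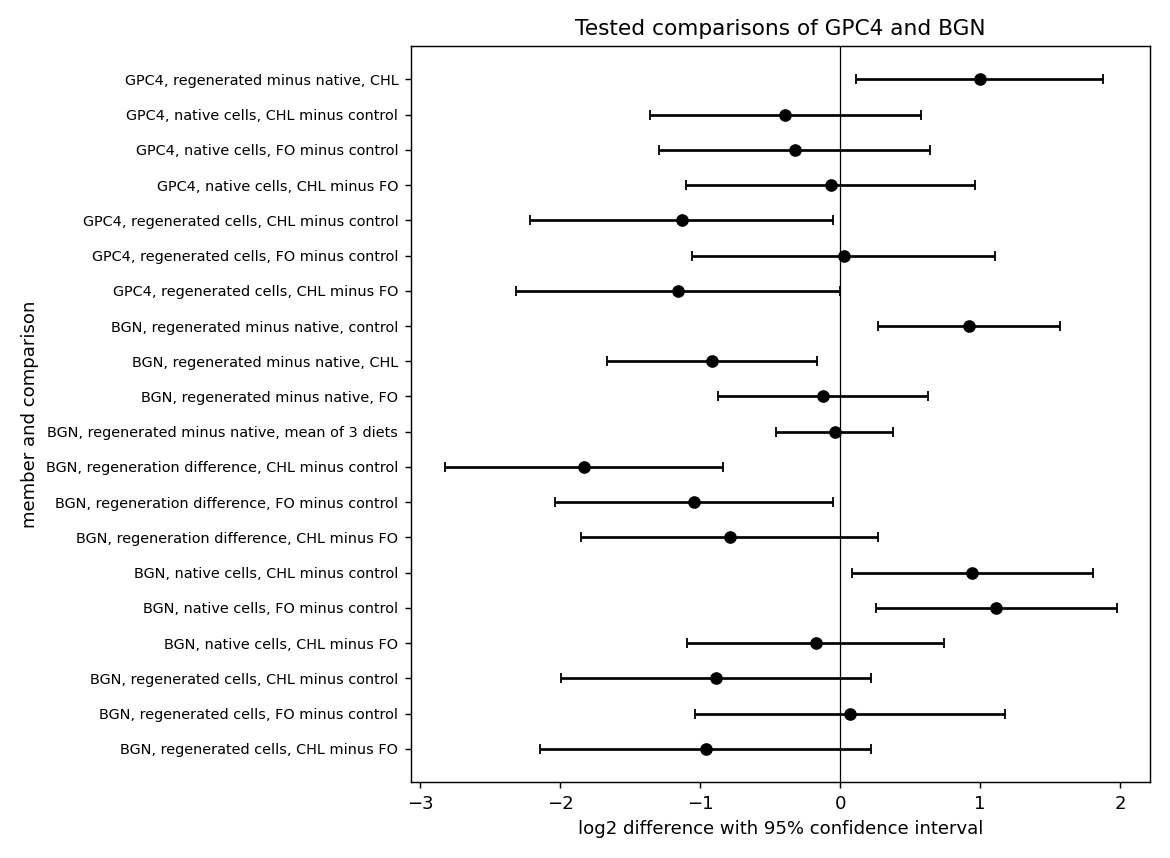
Log2 differences of the comparisons planned as tests for GPC4 (upper rows) and BGN (lower rows), with points for the limma estimate and bars for the 95% confidence interval, unadjusted. The GPC4 rows of regenerated cells are descriptions, since the regenerated FO and control arrays were among those that chose GPC4. The BGN difference between CHL and control pairs, -1.83 with an interval of -2.82 to -0.84, lies farthest from 0.

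The order of the group levels differed between the genes. Mean log2 levels of GPC4 were 10.03 ± 0.998 in FO-regenerated, 10.0002 ± 1.16 in control-regenerated, 8.87 ± 0.92 in CHL-regenerated, 8.26 ± 0.99 in control-native, 7.94 ± 0.93 in FO-native and 7.87 ± 0.87 in CHL-native cells (SD, n = 6 for CHL and FO, 8 for control). All 3 regenerated groups thus stood above all 3 native groups. Neighbours in this order differed by less than the larger SD of the neighbouring groups. Mean log2 levels of BGN were 10.48 ± 0.80 in FO-native, 10.36 ± 0.87 in FO-regenerated, 10.31 ± 0.43 in CHL-native, 10.28 ± 1.13 in control-regenerated, 9.40 ± 1.18 in CHL-regenerated and 9.36 ± 1.05 in control-native cells. The first 4 BGN groups lay close together, and CHL-regenerated and control-native cells lay below them, again by less than the larger SD of neighbours. Over all arrays GPC4 had an SD of 1.30 and BGN one of 1.01, against a median of 0.457 over the tested probe sets.

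The authors' own values are in the same directions as the mean pair differences, for GPC4 and for BGN. In the authors' deposited table of changed genes, which holds both, the log fold of native over regenerated GPC4 is -1.29 in CHL, -2.12 in FO and -2.51 in control animals, where a negative value means lower in native cells. In the same authors' deposited table BGN has 0.62 in CHL, 0.17 in FO and -1.05 in control animals. How that table was computed is not given in the sources used here. In another of the authors' deposited tables the GPC4 fold of regenerated over native cells is listed as up in each of the 8 control pairs, from 1.27 to 8.37. These folds equal the ratios of the signals of the 2 cultures, without the pseudocount. The authors' deposited group folds of regenerated over native GPC4 are 2.17 in CHL, 4.53 in FO and 3.49 in control animals. FO thus stands above control there, whereas control stands above FO among the changed genes.

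The other proteoglycans gave the setting for both genes. Besides GPC4 and BGN, 13 further core protein genes were measured. They count SMC3, APLP2 and CD74, whose products are proteoglycans only in some of their forms. As a mean over the 3 diets, 1 of the 13 rose, 1 fell and 11 did not pass the test, with a median log2 difference of -0.15, against -0.00464 over all probe sets. In that comparison 2.67% of all probe sets were called, 1.48% higher and 1.19% lower. Within CHL, FO or control pairs none of the 13 was called by limma.

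GPC1, the only other glypican measured and named here by its title, rose in regenerated cells. Its mean log2 difference over the diets was 0.83 ± 0.18 (SE, adjusted p = 0.0176), with 1.15 in CHL pairs (6 of 6 higher), 0.86 in FO pairs (4 of 6) and 0.49 in control pairs (5 of 8). Its probe set was dim, with signals between 3.32 and 232. The call was lost over artery-named animals (0.52, adjusted p = 0.414), without the 3 pairs that correlated below 0 (0.62, adjusted p = 0.0758) and with no replicate block (adjusted p = 0.109). Its adjusted p ran from 0.00980 to 0.0385 as each animal was left out. Over all animals the GPC4 difference was smallest in CHL pairs and that of GPC1 in control pairs. For GPC4 this order was not stable: without degraded arrays the artery-named control pairs averaged 0.48, against 0.997 in CHL pairs. A test of the difference between the 2 genes was not run.

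Syndecans are the transmembrane heparan sulfate proteoglycans. SDC2 had a log2 difference of 0.07 in CHL pairs, 0.82 in FO pairs and 1.56 in control pairs (adjusted p = 0.0586), higher in 6 of 8 controls. SDC1 had 0.38 in CHL, 0.09 in FO and -0.15 in control pairs. AGRN, the basement membrane proteoglycan agrin, had 0.02 in CHL, -0.18 in FO and -0.53 in control pairs. None of these passed the test.

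The small leucine-rich proteoglycans, the family of BGN, were mixed. DCN (decorin), its closest relative and a collagen binder, had log2 differences of -1.16 in CHL pairs (higher in 1 of 6), -1.11 in FO pairs (1 of 6) and -0.17 in control pairs (5 of 8). LUM (lumican), a regulator of collagen fibrils, had -1.03 in CHL (1 of 6), -0.26 in FO (2 of 6) and 0.82 in control pairs (5 of 8). FMOD (fibromodulin) had 0.03 in CHL, 0.19 in FO and 0.34 in control pairs (7 of 8). None passed the test in any diet. Like BGN, DCN and LUM were lower in regenerated cells in 5 of 6 CHL pairs, against a background of 10.5%, but both probe sets were dim and varied between animals, LUM with signals from 0.277 to 1014.

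Among the remaining core proteins SPOCK3 (testican 3), a secreted proteoglycan, fell in regenerated cells. Its mean log2 difference over the diets was -1.05 (adjusted p = 0.0453), with -1.31 in CHL, -0.86 in FO and -0.98 in control pairs. This call was weak, since 14 of the 20 settings that leave out 1 animal ended it, with adjusted p values up to 0.0899. THBD (thrombomodulin), the thrombin receptor of endothelium, had 0.29 in CHL (higher in 4 of 6), 0.70 in FO (6 of 6) and 1.07 in control pairs (8 of 8, adjusted p = 0.0642). SRGN (serglycin), the proteoglycan of secretory granules, had -0.64 in CHL, -0.86 in FO and -0.49 in control pairs.

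Genes for building, sulfating and trimming the sugar chains, which are enzymes and the sulfate donor transporter SLC35B2, gave no call. Of 10 measured, none passed in any diet or in the mean over diets, and their median log2 difference over the diets was -0.00346. Of all probe sets 0.00556% to 0.289% were called within a diet and 2.67% over the diets, so a count of 0 lies near that background. In control pairs UST, which sulfates dermatan and chondroitin chains, had -0.77 (adjusted p = 0.0614) and was lower in 8 of 8 pairs, where 1.69% of all probe sets were. HS2ST1, a sulfotransferase of heparan sulfate, had 0.14 in CHL, -0.50 in FO and -1.01 in control pairs (adjusted p = 0.0715). SULF1 and SULF2, which remove sulfate from heparan chains outside the cell, had mean differences over the diets of -0.05 and 0.21.

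**Figure D4:**
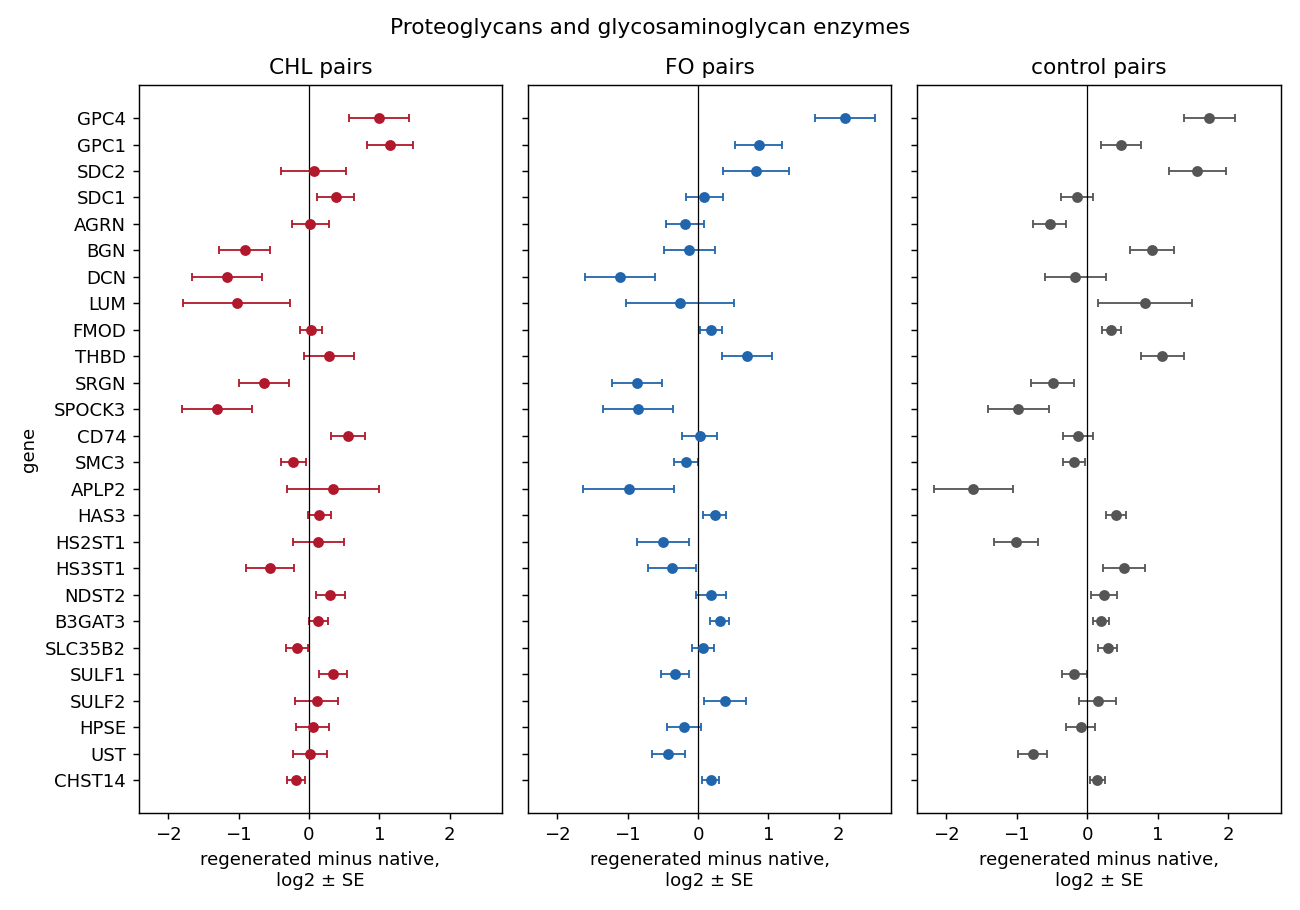
Regenerated minus native log2 difference ± SE from the limma fit for GPC4, BGN, 13 further core proteins, HAS3 and 10 genes for building, sulfating and trimming the sugar chains, in CHL (left), FO (middle) and control pairs (right). GPC4 and GPC1 lie above 0 in all 3 panels, and BGN lies at -0.91 in CHL and 0.92 in control pairs.

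Genes of proteins that bind the 2 proteoglycans were taken next. Of 4 measured ligands and receptors of glypicans, none was called, against 0.00556% to 0.289% of all probe sets within a diet and 2.67% over the diets. FGFR2, a receptor for FGFs, had 0.34 in CHL, 0.33 in FO and 0.50 in control pairs (8 of 8 higher, adjusted p = 0.0897). VEGFA, the endothelial growth factor, had 0.52 in CHL, 0.35 in FO (6 of 6) and -0.51 in control pairs. Of 13 measured partners of biglycan none was called either, which is near the same background. TGFBR2, a TGF-beta receptor, had 0.23 in CHL, -0.68 in FO and -2.40 in control pairs (adjusted p = 0.0617), and the ligand TGFB1 had -0.24 in CHL, 0.37 in FO and 0.54 in control pairs (adjusted p = 0.0814). MYD88, the adaptor of the Toll-like receptors to which biglycan can bind, had 0.16 in CHL, -0.53 in FO and -1.42 in control pairs (adjusted p = 0.0663). Genes named here and in the preceding lists are among those of smallest p in each. In control pairs 4890 of the 17999 probe sets had an unadjusted p under 0.05 by limma.

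Smooth muscle markers averaged 0.02 higher in regenerated cells of CHL pairs, 0.67 in FO pairs and 1.11 in control pairs on the log2 scale. The mean log2 level of 11 markers was 9.29 ± 0.85 in regenerated and 9.27 ± 0.74 in native cells of CHL animals, 9.48 ± 1.003 and 8.81 ± 0.49 in regenerated and native cells of FO animals, and 9.53 ± 0.83 and 8.42 ± 0.94 in regenerated and native cells of controls (SD). In control pairs all 11 were higher in regenerated cells, with a median of 0.82 against -0.02 over all probe sets, and 1 of them, ACTA2 (smooth muscle actin), was called at 3.62 (adjusted p = 0.0487), where 0.1% of all probe sets were called higher. In native cells all 11 were higher in CHL than in control animals, with a median of 0.86, and none was called, against 0.0111% of all probe sets. Label style went with these native levels too. The native marker mean ran from 7.57 to 8.89 in the 5 controls with MA labels. It was 8.61, 8.40 and 10.44 in the artery-named controls 6, 7 and 8, and ran from 8.42 to 10.30 in CHL animals, all artery-named. As a mean over the diets 10 of the 11 were higher and 1 lower, and 2 were called, where 1.48% of all probe sets were called higher. MYL9, a myosin light chain, rose by 0.77 (adjusted p = 0.0476) and PLN, a calcium pump regulator, by 0.54 (adjusted p = 0.0308). These calls were ended by 15 and 9 of the 20 settings without 1 animal. In arrays of mixed cultures, fewer cells of a type and less RNA per cell cannot be told apart.

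Over the 20 pairs the GPC4 difference went with the smooth muscle difference. Pearson's r was 0.73 and Spearman's rho 0.68, given without a test because the FO and control pair differences among them chose GPC4. Without the 2 pairs farthest from the median of the smooth muscle difference r was 0.62 and rho 0.57. Over the 15 artery-named pairs r was 0.73 and rho 0.52, and on deviations from the diet means r was 0.74 and rho 0.68. The 5 MA pairs were too few to give a value of their own. By diet r was -0.44 in CHL (n = 6), 0.98 in FO (n = 6) and 0.74 in control pairs (n = 8), so CHL pairs did not show it. In CHL pairs the smooth muscle difference averaged 0.02 and was positive in 2 of 6, while GPC4 was higher in 6 of 6.

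The relation of BGN with the smooth muscle difference passed the test over all pairs and depended on the setting. Of 5 relations computed in this family, the 2 of BGN with marker lists were read as two-sided permutation tests, with p adjusted over all 5. Its r with the smooth muscle difference was 0.64 (permutation p = 0.00245, adjusted p = 0.00612) and rho 0.56 (permutation p = 0.0117, adjusted p = 0.0196), and without the 2 farthest pairs r was 0.66 (adjusted p = 0.0118) and rho 0.57 (adjusted p = 0.0408). Over artery-named pairs r was 0.36 (adjusted p = 0.277) and rho 0.27 (adjusted p = 0.546), so the relation did not hold there. On deviations from the diet means r was 0.47 (adjusted p = 0.0609) and rho 0.51 (adjusted p = 0.0367), so rho passed the threshold and r did not. By diet r was 0.33 in CHL, -0.24 in FO and 0.90 in control pairs. The highest BGN differences were those of control pairs 4, 5 and 6 (2.37, 2.14 and 1.88), with smooth muscle differences of 1.85, 2.73 and 1.32. These pairs had a degraded RNA array or arrays that correlated below 0. The relation was not computed without the pairs set apart in this way. What part smooth muscle transcripts have in the levels of either gene was not tested.

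With the mean of the endothelial markers the relations were negative over all pairs, but not within CHL pairs. By diet, as a description, r for GPC4 was 0.11 in CHL (n = 6), -0.55 in FO (n = 6) and -0.68 in control pairs (n = 8). For BGN r was 0.81 in CHL, -0.42 in FO and -0.84 in control pairs. For GPC4, again without a test, r was -0.57 and rho -0.58 over all pairs, -0.59 and -0.51 without the 2 farthest pairs, -0.53 and -0.55 over artery-named pairs, and -0.49 and -0.52 on deviations from the diet means. For BGN r was -0.41 (permutation p = 0.0705, adjusted p = 0.0881) and rho -0.29 (permutation p = 0.208, adjusted p = 0.208), and r was -0.21 without the 2 farthest pairs, -0.33 over artery-named pairs and -0.34 on deviations from the diet means. Of the 13 markers 1 was called in the mean over the diets, where 1.19% of all probe sets were called lower. It was EMCN, an endothelial surface sialomucin, which fell by 0.88 (adjusted p = 0.0106). The call was lost without the 3 pairs that correlated below 0 (adjusted p = 0.0602) and with no replicate block (adjusted p = 0.301). The mean marker differences were small, averaging 0.04 in CHL, -0.20 in FO and -0.14 in control pairs.

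**Figure D5:**
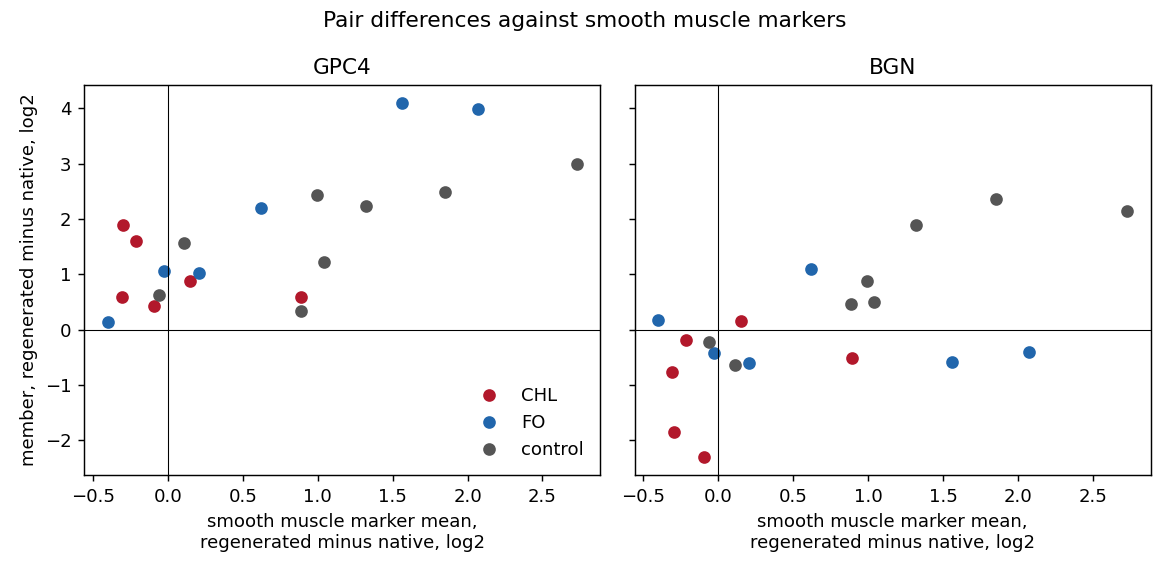
Regenerated minus native log2 difference of GPC4 (left) and BGN (right) in each pair, plotted against the difference of the mean log2 level of 11 smooth muscle markers, coloured by diet. GPC4 rises along the axis in FO and control pairs (r = 0.98 and 0.74) while CHL pairs run from -0.31 to 0.89 on the horizontal axis. BGN rises in control pairs (r = 0.90).

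Other cell types were followed by 3 further marker lists. The mean of 8 fibroblast markers, DCN and LUM among them, differed between regenerated and native cells by -0.57 in CHL pairs, -0.52 in FO pairs and -0.09 in control pairs. In the mean over the diets 1 of the 8 rose and 1 fell, against 1.48% and 1.19% of all probe sets. POSTN (periostin), a matrix protein, fell in regenerated cells, with a mean log2 difference over the diets of -2.79 (adjusted p = 0.00114), and was higher in 1 of 6 CHL, 0 of 6 FO and 1 of 8 control pairs. FAP, a membrane protease of activated fibroblasts, rose by 1.38 (adjusted p = 0.0462), a call that 16 of the 20 settings without 1 animal ended. Of 6 adipocyte markers with a named probe set, 4 were left after dim probe sets were removed. In the mean over the diets 3 of these 4 were higher and 1 lower, and 2 were called, against 1.48% of all probe sets called higher. PPARG, the fat cell transcription factor that endothelial cells also make, rose by 1.24 (adjusted p = 0.000873), and FABP4, a fatty acid carrier, by 1.29 (adjusted p = 0.0192). The 3 leukocyte markers left of 5 with a named probe set had group means between 5.27 and 5.53, close to the dimmest tested level of 5.08. In the mean over the diets, the calls of POSTN and PPARG passed under every alternative run, while those of EMCN, FABP4, FAP, GPC1, MYL9, PLN and SPOCK3 were lost over artery-named animals alone. The part of these cell types in the GPC4 and BGN values was not tested.

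The pair differences of GPC4 and BGN were set against each other last. Both were higher in regenerated cells in 9 of 20 pairs. Over the pairs, without a test, Pearson's r was 0.31 and rho 0.34. They were 0.15 and 0.20 without the 2 farthest pairs, 0.12 and 0.06 over artery-named pairs, and 0.24 and 0.32 on deviations from the diet means. By diet r was 0.02 in CHL, -0.20 in FO and 0.74 in control pairs.

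The genes most like GPC4 were sought among 1887 named genes, as a description without a test. Over the 40 arrays its level went most closely with INA (r = 0.89), RFLNA (0.85), RPS23 (0.82), SLC1A1 (0.81) and DMTN (0.81), and least with EIF3E (-0.80), ANXA1 (-0.80) and SERPINB7 (-0.79). Over the 20 pair differences the closest were WDR47 (0.89), HSPB8 (0.89), DGKA (0.85), GDF11 (0.85) and INA (0.83). At the other end stood MX1 (-0.89), IFIT1 (-0.87) and RSAD2 (-0.86), 3 genes that interferon induces. INA was the only gene among the top 5 in both lists. Arrays share animals, diets and cell status, so these r values are no measure of independent agreement.

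For BGN the closest genes over the 40 arrays were ENG (r = 0.78), MYL9 (0.75), FAM189A2 (0.75), SMAD6 (0.75) and UNC5C (0.74), and the least alike were ACSL4 (-0.76), IL6ST (-0.73) and RAP1B (-0.73). ENG, a co-receptor for TGF-beta, is also on the endothelial marker list and MYL9 on the smooth muscle list. Over the 20 pair differences the closest were DECR1 (0.89), SKA1 (0.86), RAN (0.86), PDCL (0.84) and ARHGAP11A (0.84), and the least alike were TRIM26 (-0.91), VEGFA (-0.89) and LIFR (-0.88). No gene appears in the lists of both GPC4 and BGN.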

How the data were processed

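The authors deposited 40 arrays as linear intensity values, MAS5 signals per the submitters' processing notes, in a table of 24123 probe sets. MAS5 summarises each array alone, which leaves wide spread at low signal. The log2 folds and the absolute fold ratios in the authors' deposited tables were copied. Analysis used log2(signal + 16) without 124 control probe sets and without probe sets at or below the 25th percentile of mean level. Linear models were fitted with limma 3.58.1 in R 4.3.3, with the animal as a block for regenerated minus native, and by diet on native or regenerated arrays alone. P-values were two-sided and adjusted by Benjamini-Hochberg over 17999 probe sets in each of 13 comparisons, and measure the spread between animals. The fit was tested on simulated data. Pairing comes from the study's design text and the shared replicate numbers. As a check, paired arrays deviated together in 17 of 20 pairs (correlation over 0.1, median 0.51). Relations of BGN with marker lists used 100000 permutations. Those of GPC4, and its differences between diets in regenerated cells, were planned as tests. They are printed as descriptions because FO and control values behind them chose GPC4. Where several probe sets named a gene, that of highest mean level was used. Of 11814 probe sets listed with a title or symbol, 2993 had 1 symbol, 27 of them named here by title, 59 had several and 8762 had none. Up to 4 genes per list with the smallest p were named. The members and lists were chosen with earlier results of these data known. Titles in 1 deposited table stand a row out of step and were not used. No column belonged to another sample.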

Additional observations from a re-analysis of the deposited data

How the results depend on the processing

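The animal was a block for regenerated minus native. With no replicate block the BGN difference in control pairs stayed at 0.92 (adjusted p = 0.328) and no BGN or GPC4 test changed its side of the threshold. No test of GPC4 or BGN between groups passed under the other pseudocounts, filters or quantile normalization, with only the compared groups, over artery-named animals, or without the pairs with a degraded array or those that correlated below 0. BGN in control pairs passed without control animal 3 or 8, settings in which 1448 and 2405 probe sets were called. Its difference in control pairs ran from 0.71 to 1.14 as each animal was left out. Small differences turned direction as animals were left out: BGN over the 3 diets ran from -0.12 to 0.054, GPC4 between CHL and FO native cells from -0.35 to 0.15, and between FO and control regenerated cells GPC4 from -0.22 to 0.29 and BGN from -0.24 to 0.30. GPC4 between CHL and FO native cells was 0.11 without the animals with a degraded RNA array. Over artery-named animals FO minus control regenerated cells was -0.35 for GPC4 and -0.44 for BGN. Between FO and control pairs the GPC4 difference ran from -0.05 to 0.74 as animals were left out. Over artery-named animals without a degraded RNA array, a setting added after seeing the data, GPC4 was 0.48 in control pairs, and differed by 0.51 between CHL and control and by 1.58 between FO and control pairs. Pearson's r of BGN with the smooth muscle markers missed the threshold over artery-named pairs (0.36) and on deviations from diet means (0.47, where rho of 0.51 passed, adjusted p = 0.0367). For GPC4 with the endothelial markers r was -0.53 and -0.49 in these settings, as a description. The causes were not tested. Counts of all probe sets called depended on the setting: over the 3 diets 24 to 1118 against 480, and in control pairs 0 to 2405 against 52. In native cells CHL against control gave 0 to 232 against 2, and FO against control 0 to 16 against 0. In CHL pairs 0 to 4 were called against 1, and in FO pairs 0 to 8 against 7. The methods' paired t-test called 1221 probe sets in CHL, 902 in FO and 3320 in control pairs unadjusted, and 0 in each after Benjamini-Hochberg adjustment. No second probe set named either gene, so that alternative gave no value. The number of animals limits what can be seen: with 6 to 8 a group, intervals between diets spanned about 2 log2 units.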
